A study of Papio anubis with 28 samples.

Results

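Tenascin-C (TNC), periostin (POSTN), fibronectin (FN1), SPARC, thrombospondin-1 (THBS1), thrombospondin-2 (THBS2), versican (VCAN), fibroblast activation protein (FAP) and THY1 are 9 genes of the matrix and the cell surface that are known for wound repair and activated fibroblasts. They were taken by symbol from a table of 27533 genes, which held each symbol once, and all 9 passed the filter on low counts that left 17177 genes. The table comes from RNA sequencing of olive baboon (Papio anubis) urinary bladder, in a study of bladder augmentation. Each of 14 animals gave 1 library of the grafted tissue and 1 of native bladder, which makes 28 libraries in 6 groups. The grafts were a segment of ileum in the Entero arm (5 animals), tissue regenerated on a scaffold in the SIS arm (5 animals), and the same in the PRS arm (4 animals). Both scaffolds had been seeded with primary bone marrow cells, mesenchymal stromal cells together with CD34+ haematopoietic stem and progenitor cells.

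All animals are labelled wild type, and every native bladder came from an animal that also carried a graft. SIS is read here as small intestinal submucosa. The sources used here do not say what PRS stands for, how old the animals were, when after surgery tissue was taken or from which part of a graft. No ungrafted ileum was analysed here, so differences between bowel and bladder cannot be told apart from changes that followed grafting. Animals are numbered within an arm, and a number marks the same animal in both tissues.

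A healing wound is first filled with a provisional matrix of fibronectin, hyaluronan and versican. Matricellular proteins such as tenascin-C, periostin, SPARC and the thrombospondins are then added, which alter how cells attach and which growth factors reach them rather than bear load. Transforming growth factor β (TGF-β) and platelet-derived growth factor drive fibroblasts to make these proteins, and activated fibroblasts carry FAP, a serine protease, while THY1 marks many fibroblasts whether activated or not. In adult bladder the matrix lies in the lamina propria beneath the urothelium and between the bundles of smooth muscle.

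Total counts lay between 20975648 and 35669026 per library, and the smallest count of any of the 9 genes in any library was 110 reads, for FAP. Values are given as CPM, counts relative to the total of the library, with totals scaled between libraries by the trimmed mean of M values (TMM). Markers of epithelium went with the tissue labels. The summed level of 6 urothelial markers was 8.98 to 29.9 CPM in ileum grafts, 256 to 5205 CPM in SIS and 351 to 2528 CPM in PRS regenerated tissue, and 201 to 5497 CPM in native bladder. That of 6 intestinal epithelial markers was 1629.5 to 7363 CPM in ileum grafts and at most 202 CPM in every other library. Mitochondrial genes took 14% to 33.9% of the counts in ileum grafts and 4.66% to 11.6% elsewhere. Some libraries stood apart for these genes. SIS regenerated tissue of animal 2 was the highest of its group for all 9 genes (33.3% of all genes tested were highest there), native bladder of Entero animal 4 for 8 of 9 (32.4%), and ileum graft of animal 2 for 5 of 9 (15%). PRS regenerated tissue of animal 2 was the highest of its group for 6 of 9 (35.8%), with FN1 at 18.2 times, THBS2 at 5.5 times, FAP at 4.31 times and SPARC at 2.71 times the median of the other 3. Results that rest on any of these 4 are given with and without it, except correlations over the 28 libraries, which used all of them. The first 3 were also left out together, and "the 3 libraries" below means those. They were chosen after the values of these genes were seen, so fits without them are no separate support.

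SPARC, a collagen-binding glycoprotein, had the highest mean level per length of gene in all 6 groups, from 219.9 ± 211 CPM per kb in ileum grafts (SD, n = 5) to 928 ± 1266 CPM per kb in SIS regenerated tissue (SD, n = 5). FN1 and THY1 followed in each native group, THY1 with the reservation that the table gives it a length of only 510 bases, which raises its level per kb. VCAN, a large chondroitin sulphate proteoglycan, had the lowest mean level in 5 of the 6 groups and TNC the lowest in SIS native bladder. Within a gene the range over the 28 libraries was wide, 11.7-fold for THY1 at the low end and 88.1-fold for VCAN at the high end. For each of the 9 genes the ranges of any groups next to each other in the order of mean CPM overlapped.

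**Figure D1:**
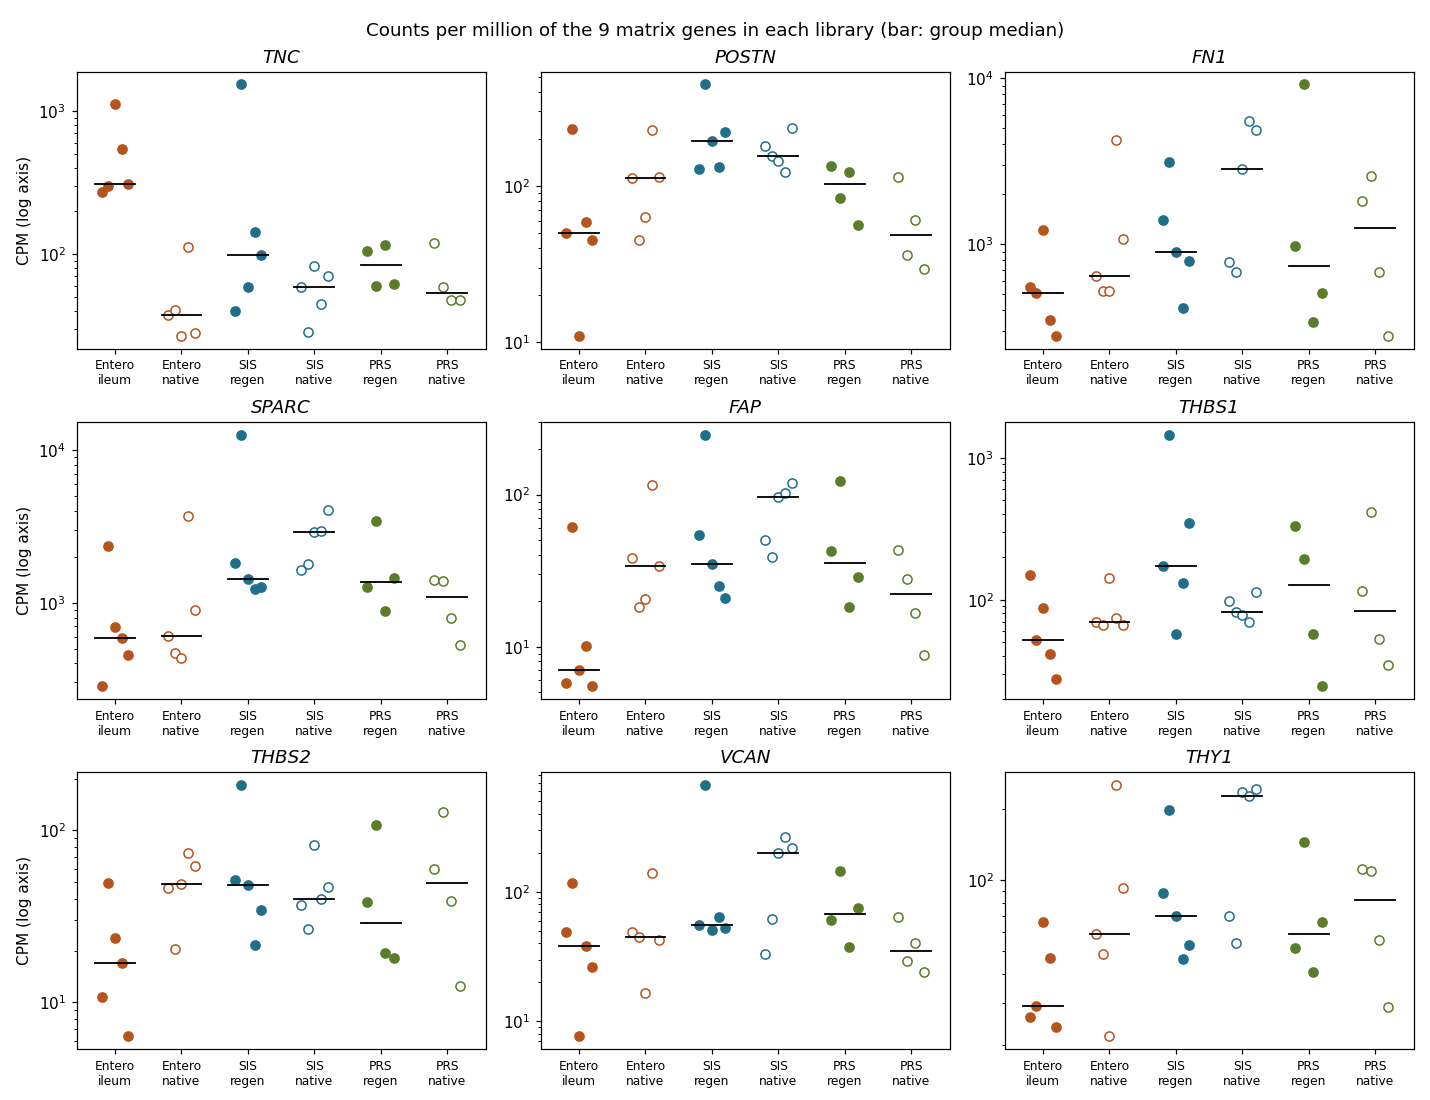
CPM (log axis) of the 9 genes in each of the 28 libraries, by group, with filled points for grafts, open points for native bladder and a bar at the group median. The 5 ileum grafts lie between 273 and 1124 CPM for TNC, above all 5 native bladders of the same animals, while for the other 8 genes graft and native points overlap in every arm.

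The ileum graft was compared with native bladder of the same arm to ask how augmenting bowel differed from the wall it was sewn into. TNC was about 10.4-fold higher in the ileum grafts, and it was the only one of the 9 genes that passed the test there. The other 8 had fold changes below 0, none of which passed. TNC codes for tenascin-C, a glycoprotein of healing wounds that is scarce in most resting adult matrix. It was at 273, 298, 1124, 543 and 312 CPM in the ileum grafts of animals 1 to 5, against 37.6, 40.6, 26.6, 112 and 27.8 CPM in their native bladders. The lowest ileum graft was above the highest native bladder. The log2 fold change was 3.38 (SE 0.77, 95% interval 1.80 to 4.97, adjusted p = 0.00332 by edgeR's quasi-likelihood test over all genes). Of all genes tested, 7.72% were called higher in ileum grafts, 7.33% lower, and 15% in either direction. Groups that did not overlap, with ileum grafts higher, were found for 5.52% of genes. In each of the 5 animals the graft exceeded its own bladder, by 2.83, 2.85, 5.35, 2.27 and 3.44 on the scale of log2(CPM + 1), and 10.3% of all genes were higher in the graft of every Entero animal. Without the 3 libraries that stood apart the log2 fold change was 4.08 (adjusted p = 1.18e-05 by edgeR). Those 3 include the native bladder with the most TNC, so this value is no separate support.

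In bulk tissue, more cells of a type and more RNA per cell cannot be told apart, which holds for every result here. DES, the intermediate filament of muscle, was at 4266, 1044, 40236, 17958 and 14682 CPM in the grafts of animals 1 to 5, so that the grafts of animals 3, 4 and 5 were, in that order, the highest for both DES and TNC, and those of animals 1 and 2 the lowest for both. Intestinal epithelial markers moved with the groups as well, at 1629.5 to 7363 CPM summed in ileum grafts against 23.7 to 202 CPM in Entero native bladder. The part of either in the TNC result was not tested.

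FAP was at 5.78, 61.5, 7.06, 10 and 5.49 CPM in the ileum grafts, against 38.5, 18.3, 20.6, 116 and 34.0 CPM in the native bladders of the same animals. It was lower in the graft of 4 of 5 animals, and the graft of animal 2 went the other way. The log2 fold change of FAP was -1.34 (SE 0.76, adjusted p = 0.254 by edgeR). It was -2.68 without the ileum graft of animal 2 (adjusted p = 0.0169), -1.97 without the 3 libraries that stood apart (adjusted p = 0.0155), and -0.63 without native bladder of Entero animal 4 (adjusted p = 0.652). The value of FAP thus depended on both libraries. The ileum graft of animal 2 was at 232 CPM for POSTN, against 10.9 to 58.5 CPM in the other 4 grafts, and at 2343 CPM for SPARC, against 283 to 692 CPM in those 4. COL1A1, the chain of the main fibrillar collagen, was at 1975 CPM there and 111 to 256 CPM in the other 4.

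THY1, a surface glycoprotein of fibroblasts, was at 26.3, 29.1, 66.2, 46.6 and 23.7 CPM in ileum grafts and 59.2, 48.3, 21.7, 253 and 92.8 CPM in native bladder. Its log2 fold change was -1.31 (SE 0.58, 95% interval -2.50 to -0.12) with an adjusted p of 0.132 by edgeR. The fold changes of THBS2 (-1.23) and FN1 (-1.27) were close to it in size, and those of POSTN, SPARC, VCAN and THBS1 lay between -0.51 and -0.22. The median of the 9 was -0.51, against -0.03 for all genes tested. Without the ileum graft of animal 2, THBS2 gave -1.80, POSTN -1.46, SPARC -1.27, FN1 -1.23, THY1 -1.22 and VCAN -0.94. None of these passed (adjusted p from 0.0595 to 0.483 by edgeR). Without native bladder of Entero animal 4, THY1 gave -0.53, FN1 -0.25, POSTN -0.08 and THBS2 -1.05. SPARC at 0.54 and VCAN at 0.33 took the other sign without that library, and THBS1 at 0.05 without that of animal 3, so no direction is given for these 3.

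**Figure D2:**
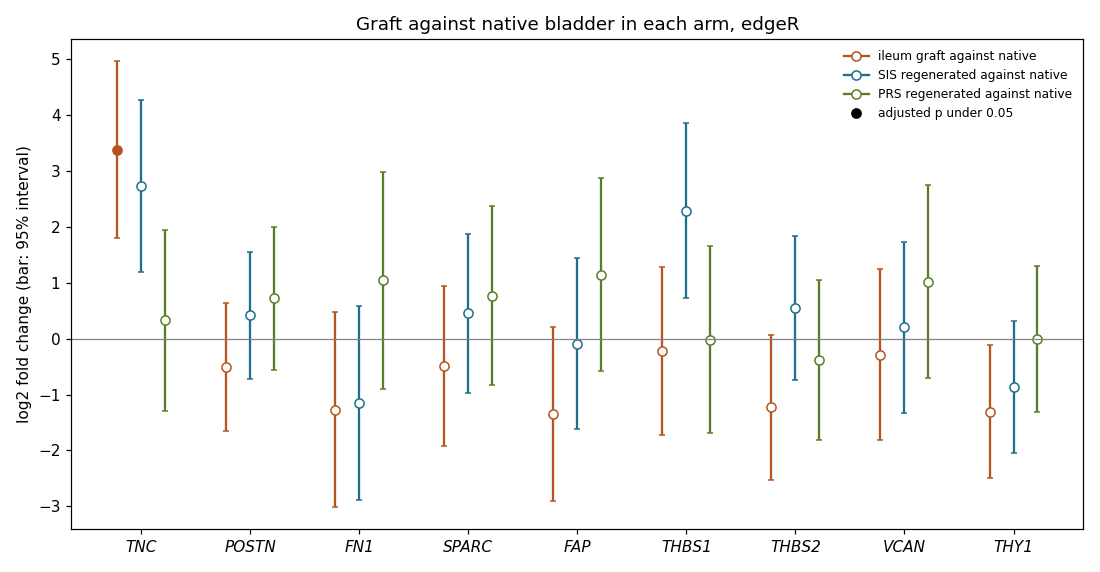
Log2 fold change of each gene, graft over native bladder, in the 3 arms, with 95% intervals from edgeR. The filled point, TNC in ileum grafts at 3.38, has an adjusted p under 0.05. Open points do not.

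Genes around these 9 in the same pathways were read from lists. Of 13 interstitial collagens and genes of resident fibroblasts, 6 fell in ileum grafts and none rose, and all 13 had fold changes below 0 (median -1.33, against -0.03 for all genes). PI16, a marker of adventitial fibroblasts, fell by 5.69 on the log2 scale (SE 1.07), the proteoglycan DCN by 2.63 (SE 0.55) and the fibulin FBLN1 by 2.33 (SE 0.44), with adjusted p-values of 0.000524, 0.00142 and 0.00058 by edgeR. Of 17 TGF-β and wound response genes, LOXL2, a collagen cross-linking oxidase, rose by 1.74 (SE 0.59), while the collagen receptor chain ITGA11 at -2.15 (SE 0.46) and the microfibril gene FBN1 at -2.0 (SE 0.68) fell. Of 14 ligands and receptors of the TGF-β and PDGF families only the co-receptor TGFBR3 was called, at -2.06 (SE 0.54).

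Of 14 receptors for the matrix proteins, 3 fell in ileum grafts, the syndecans SDC1 at -2.66 (SE 0.75) and SDC4 at -1.70 (SE 0.51) and the epithelial integrin chain ITGB6 at -2.23 (SE 0.73). Of 17 relatives of the 9 genes, 1 rose and 3 fell. The one that rose was DPP4, the protease most like FAP and an enzyme of the intestinal brush border, at 5.16 (SE 0.81). COMP, which is thrombospondin-5, gave -3.67 (SE 0.76) and SMOC1, a relative of SPARC, -4.47 (SE 1.10). Of 11 partners and proteases of versican, 3 fell, ADAMTS5 at -2.70 (SE 0.64), ADAMTS1 at -1.60 (SE 0.51) and the hyaluronan synthase HAS3 at -3.49 (SE 1.00). None of 10 immediate early response genes was called by edgeR, and none had an unadjusted p under 0.05, nor did DESeq2 call any. Epithelial markers differ between these groups as given above, and SDC1, SDC4, ITGB6 and DPP4 are also made by epithelia. With the animal as a block, 1 of the 17 wound response genes was called, lower, and 1 of the 14 receptors. FBN1 and ADAMTS1 were not called without native bladder of Entero animal 4 (-1.18 and -1.33), nor were FBN1, LOXL2 and ADAMTS1 without the ileum graft of animal 2 (-2.09, 1.75 and -1.51).

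Regenerated tissue of the SIS arm was compared with native bladder to ask what remained different once tissue had formed on the seeded scaffold. By edgeR none of the 9 genes passed, and 0% of all 17177 genes did. TNC and THBS1 had an unadjusted p under 0.05, as 4.86% of all genes had, and DESeq2 called TNC alone (log2 fold change 2.76, adjusted p = 0.021). TNC was at 39.7, 1543, 58.9, 143 and 98.2 CPM in regenerated tissue of animals 1 to 5, against 59.0, 28.3, 81.9, 44.6 and 70.4 CPM in their native bladders. Animal 2 stood apart, with a regenerated tissue 19.7 times the median of the other 4. The log2 fold change was 2.73 (SE 0.75, adjusted p = 0.505 by edgeR), and 0.58 without that library (adjusted p = 0.962). The graft exceeded the native bladder in 3 of 5 animals.

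THBS1, an activator of latent TGF-β that is also released by platelets, was at 173, 1456, 57.6, 132 and 346 CPM in SIS regenerated tissue and 97.6, 82.1, 78.4, 69.9 and 113 CPM in SIS native bladder. The graft was above the bladder in 4 of 5 animals, and the ranges overlapped. The log2 fold change was 2.29 (SE 0.76, adjusted p = 0.686 by edgeR), and 1.00 without regenerated tissue of animal 2 (adjusted p = 0.962). Summed platelet markers were 0 to 2.76 CPM in SIS regenerated tissue and 0.181 to 1.71 CPM in SIS native bladder.

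The other 7 genes had log2 fold changes from -1.15 for FN1 to 0.55 for THBS2 in the SIS arm. FN1, which codes for the fibronectin of the provisional matrix, was at 1403, 3115, 892, 409.5 and 795 CPM in regenerated tissue, against 775, 676, 2833, 5537 and 4908 CPM in native bladder. Without regenerated tissue of animal 2, THBS2 gave -0.26, SPARC -0.90 and VCAN -1.48, against 0.55, 0.45 and 0.20 with it, so no direction is given for these 3. FAP gave -1.27 without it and -0.09 with it, THY1 -1.36 and -0.86, FN1 -1.75 and -1.15, and POSTN 0.01 and 0.42. In the fit without that library VCAN and THY1 had an unadjusted p under 0.05 by edgeR (0.0319 and 0.0309, adjusted p = 0.962 each). TNC and THBS1 no longer had one (0.238 and 0.142). For FN1, animals 1 and 2 were higher in the graft, and animals 3, 4 and 5 lower. SPARC, FAP, THBS2, VCAN and THY1 split in the same way, with animals 1 and 2 above 0 and animals 3 to 5 below. For VCAN the differences on the log2(CPM + 1) scale were 0.73, 3.42, -1.94, -2.04 and -2.05. DES followed the same split, at 11630.4, 17489, 3052, 3167 and 3727 CPM in the regenerated tissue of the 5 animals and 5207, 4204, 11153, 33436 and 21502 CPM in their native bladders. The part of muscle content in these differences was not tested.

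**Figure D3:**
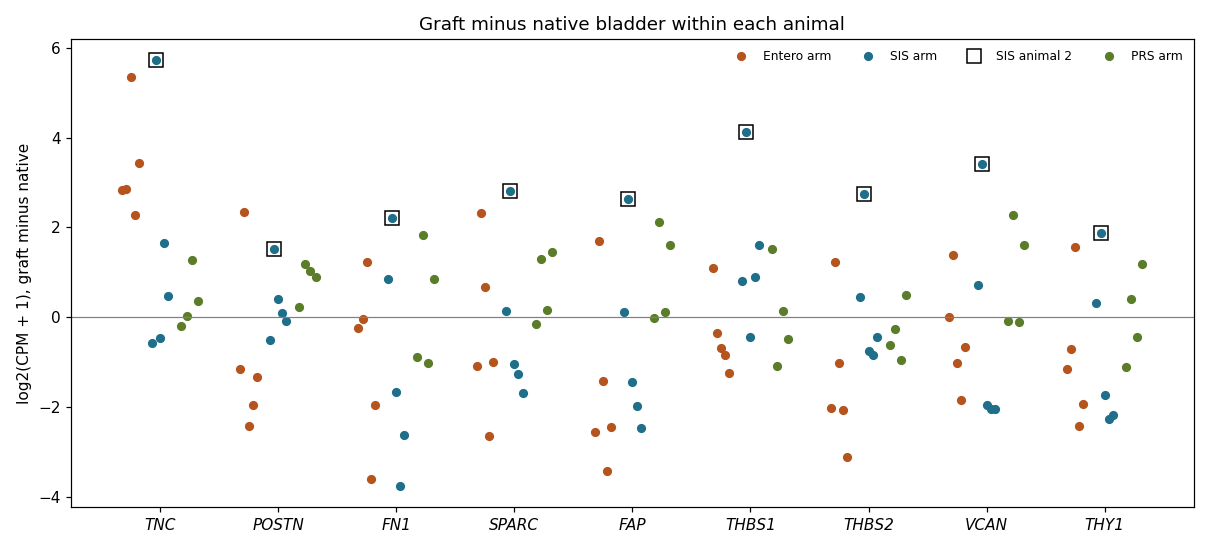
Difference in log2(CPM + 1), graft minus native bladder, within each animal for the 9 genes, by arm, with SIS animal 2 boxed. All 5 Entero points lie above 0 for TNC, all 4 PRS points lie above 0 for POSTN, and SIS animal 2 is the highest SIS point for all 9 genes.

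Among the lists, none had a gene that passed in SIS regenerated tissue against native bladder by edgeR. At an unadjusted p under 0.05 stood 3 of 11 versican partners, 2 of 17 wound response genes, 2 of 10 immediate early genes and 1 of 14 receptors, and DESeq2 called 1 gene in each of the first 3 of these lists. Among these were ADAMTS4, a versican-cleaving protease, at 6.72 (SE 1.49), the hyaluronan synthase HAS1 at 4.61 (SE 1.52), TNFAIP6, a hyaluronan-binding protein of inflammation, at 3.95 (SE 1.23), and INHBA, a chain of activin A, at 3.50 (SE 1.01). These values rested on regenerated tissue of animal 2. Without it ADAMTS4 gave 2.84, HAS1 0.45, TNFAIP6 -0.67 and INHBA 0.19, and an unadjusted p under 0.05 was then found for 1 of 11 versican partners, 2 of 17 wound response genes, 1 of 10 immediate early genes and 0 of 14 receptors.

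In the PRS arm none of the 9 genes passed by edgeR, by DESeq2 or at an unadjusted p under 0.05, a level that 3.62% of all genes reached, and 0% of all genes were called. POSTN, a fasciclin-domain protein that TGF-β induces, was at 134, 83.5, 123 and 55.8 CPM in regenerated tissue of animals 1 to 4 and 115, 36.1, 60.3 and 29.5 CPM in native bladder. All 4 animals had more in the graft, by 0.23 to 1.19 on the log2(CPM + 1) scale, as were 5.52% of all genes. Its log2 fold change was 0.72 (SE 0.62, 95% interval -0.55 to 2.00). TNC was at 104, 59.9, 116 and 62.1 CPM in PRS regenerated tissue and 119, 58.9, 47.6 and 47.9 CPM in PRS native bladder. Its log2 fold change was 0.33, with an interval from -1.29 to 1.95.

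The fold changes of FAP (1.15), FN1 (1.05), VCAN (1.02) and SPARC (0.77) in the PRS arm had intervals that included 0. FN1 was at 976, 9182, 336 and 505 CPM in regenerated tissue and 1809, 2559, 680.4 and 279 CPM in native bladder. The regenerated tissue of animal 2 was 18.2 times the median of the other 3, and without it the fold change of FN1 was -1.14, that of FAP 0.31, that of SPARC 0.23 and that of VCAN 0.56. DES in that library was 31028 CPM, against 1524 to 9163 CPM in the other 3. With all libraries the median over the 9 genes was 0.72, against 0.02 for all genes. Without regenerated tissue of animal 2, POSTN gave 0.80, TNC 0.47, THBS1 -0.16, THY1 -0.53 and THBS2 -1.24. The 9 genes thus had no common direction in that fit. No list held a called gene by edgeR or DESeq2. At an unadjusted p under 0.05 stood 5 of 10 immediate early genes, all 10 with fold changes above 0 (median 1.04), and no gene of the other 6 lists.

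With both scaffold arms together (9 animals) no gene of the 9 passed by edgeR or DESeq2, and 0% of all genes did by edgeR. TNC gave 1.53 (SE 0.54, unadjusted p = 0.00889, adjusted p = 0.65) and THBS1 1.14 (SE 0.55, unadjusted p = 0.05), and 4.98% of all genes had an unadjusted p under 0.05. Without SIS regenerated tissue of animal 2 these were 0.45 and 0.49.

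Whether the arms differed in their change from native bladder was tested as a difference of differences. Of the 9 genes, none passed for the SIS change against the Entero change, for the PRS change against the Entero change, or for the PRS change against the SIS change, where 6.56%, 3.49% and 0% of all genes did. An unadjusted p under 0.05 was found for 1, 2 and 2 of the 9, against 19.5%, 16% and 3.98% of all genes, and DESeq2 called 0, 1 and 0 of the 9. These comparisons share libraries, so they are not independent of each other. For the PRS change against the SIS change, the genes with such a p depended on single libraries. Without SIS regenerated tissue of animal 2 they were FN1 at 2.80, VCAN at 2.50 and FAP at 2.41 (adjusted p = 0.967 each by edgeR). TNC then gave -0.25 and THBS1 -1.02. Without PRS regenerated tissue of animal 2, FN1 gave 0.03, VCAN 0.37 and FAP 0.41. The change in TNC was smaller in the PRS arm than in the Entero arm by 3.05 on the log2 scale (SE 1.08, 95% interval -5.27 to -0.84, adjusted p = 0.126 by edgeR and 0.036 by DESeq2). Without the 3 libraries that stood apart it was -3.76 (adjusted p = 0.00156 by edgeR). For the SIS arm the value was -0.65 (SE 1.00, adjusted p = 0.798) with all libraries, -2.80 (adjusted p = 0.0115) without SIS regenerated tissue of animal 2, and -3.51 (adjusted p = 0.00117) without the 3 libraries. The libraries left out were picked for high values of these genes, TNC among them in SIS animal 2 and Entero animal 4. The fits without them are therefore no separate support.

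With the animal as a block the change in TNC was smaller than in the Entero arm by 2.96 in the PRS arm (adjusted p = 0.17) and by 2.32 in the SIS arm (adjusted p = 0.261). The block lowered the number of genes called to 675, against 1127 without it, for the SIS change against the Entero change, and to 240, against 600 without it, for the PRS change. FAP had a PRS change above the Entero change by 2.49 (SE 1.13, adjusted p = 0.267), and by 3.83 without the ileum graft of animal 2 (adjusted p = 0.0372). The same value of FAP was 1.78 without native bladder of Entero animal 4 (adjusted p = 0.465) and 1.66 without PRS regenerated tissue of animal 2 (adjusted p = 0.555). THBS1 had an SIS change above the Entero change by 2.51 (SE 1.05, adjusted p = 0.17), and by 1.22 without SIS regenerated tissue of animal 2 (adjusted p = 0.497).

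The grafts were also compared with each other, which asks how regenerated tissue differs from bowel in the same position. SIS regenerated tissue had higher THBS1 and SPARC than ileum grafts, and 8 of the 9 genes had fold changes above 0. THBS1 was at 173, 1456, 57.6, 132 and 346 CPM in SIS regenerated tissue, against 150.3, 51.7, 87.7, 41.2 and 27.6 CPM in ileum grafts. SPARC was at 1814, 12649.8, 1430.1, 1232 and 1269.9 CPM in SIS regenerated tissue, against 283, 2343, 692, 589 and 454 CPM in ileum grafts. For SPARC 4 of the 5 ileum grafts were below every regenerated tissue, and the graft of animal 2 was above 4 of them. The log2 fold changes were 2.59 for THBS1 (SE 0.77, adjusted p = 0.0181) and 2.08 for SPARC (SE 0.72, adjusted p = 0.0409), so that 2 of the 9 passed, where 10.9% of all genes were called higher, 10.2% lower and 21.1% in either direction. Without regenerated tissue of SIS animal 2 neither passed, with THBS1 at 1.3 (adjusted p = 0.172) and SPARC at 0.72 (adjusted p = 0.433). The call on SPARC was also lost without the ileum graft of animal 1, 3, 4 or 5 (adjusted p from 0.0767 to 0.0959, fold changes from 1.85 to 2.0), and that on THBS1 without the graft of animal 5 (2.39, adjusted p = 0.0508).

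FAP at 2.09 (SE 0.77), VCAN at 1.90 (SE 0.77), THBS2 at 1.67 (SE 0.64), POSTN at 1.5 (SE 0.56) and THY1 at 1.25 (SE 0.58) had adjusted p-values between 0.0548 and 0.124 by edgeR in SIS regenerated tissue against ileum grafts. Without SIS regenerated tissue of animal 2 they gave 0.91, 0.22, 0.86, 1.09 and 0.75 in the same order (adjusted p from 0.181 to 0.846). Without the ileum graft of animal 2, FAP, VCAN, THBS2 and POSTN passed as well (adjusted p from 0.00208 to 0.0332), with fold changes of 2.24 to 3.43. FAP passed without regenerated tissue of SIS animal 4 or 5, and THBS2 without that of animal 4. DESeq2 called 6 of the 9, and 4530 of 17177 genes in all. A fit of these groups alone called none of the 9, and 2326 of 15395 genes in all. Without the 3 libraries that stood apart, where edgeR called 3087 of 17005 genes, 4 of the 9 passed. These were FAP at 2.25 (adjusted p = 0.00565), POSTN at 2.04 (adjusted p = 0.00357), SPARC at 1.51 (adjusted p = 0.0153) and, in the other direction, TNC at -2.73 (adjusted p = 0.000354). With all libraries TNC gave -0.44 (SE 0.70), and without SIS regenerated tissue of animal 2 alone it passed at -2.58 (adjusted p = 0.00106).

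In PRS regenerated tissue TNC fell to 59.9 to 116 CPM, against 273 to 1124 CPM in ileum grafts, and the groups did not overlap. The log2 fold change was -2.57 (SE 0.81, 95% interval -4.24 to -0.90, adjusted p = 0.0345 by edgeR). It was the only one of the 9 genes called, where 7.21% of all genes were called higher, 6.75% lower and 14% in either direction, and 5.72% had groups that did not overlap with PRS tissue lower. The call was lost when the ileum graft of animal 3 (adjusted p = 0.0876) or any one PRS regenerated library was left out (adjusted p from 0.0575 to 0.0982), with fold changes of -2.76 to -2.06. FN1 gave 2.24 (SE 0.90, adjusted p = 0.0975 by edgeR and 0.0465 by DESeq2). By edgeR it was 0.08 without PRS regenerated tissue of animal 2 (adjusted p = 0.972), and DESeq2 was not run without that library. FAP gave 1.57 (SE 0.79, adjusted p = 0.199), 2.91 without the ileum graft of animal 2 (adjusted p = 0.0142) and 0.75 without PRS regenerated tissue of animal 2 (adjusted p = 0.645). Without the 3 libraries FAP at 2.91 (adjusted p = 0.00108) and SPARC at 1.81 (adjusted p = 0.00586) passed as well. Those 3 do not include PRS regenerated tissue of animal 2. With that library alone left out, SPARC gave 0.48 (adjusted p = 0.773 by edgeR).

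In SIS regenerated tissue against ileum grafts, the genes called in the lists were nearly all higher in the regenerated tissue. Of all genes tested, 10.9% were called higher there and 10.2% lower. Of 13 interstitial collagens and resident fibroblast genes 10 rose, led by FBLN1 at 2.96 (SE 0.46), LUM at 2.95 (SE 0.56) and DCN at 2.88 (SE 0.55). Of 11 versican partners 8 rose, among them ADAMTS1 at 2.91 (SE 0.54), TNFAIP6 at 6.86 (SE 1.41) and HAS1 at 8.81 (SE 1.91). Of 17 wound response genes 10 rose, among them ITGA11 at 1.88 (SE 0.45) and INHBA at 3.56 (SE 1.02). Of 14 TGF-β and PDGF ligands and receptors 5 rose, of 14 matrix receptors 4, with CD44, the hyaluronan receptor, at 1.67 (SE 0.34), and of 10 immediate early genes 6. Of 17 relatives 5 rose and DPP4 fell by 5.97 (SE 0.84). Without SIS regenerated tissue of animal 2 the collagens and fibroblast genes had 7 called higher and the versican partners 5, while the wound response genes had 2 called higher and 1 lower. The ligands and receptors then had 3 called higher, the matrix receptors 4, the immediate early genes 4 and the relatives 2. TNFAIP6 gave 2.24 and HAS1 4.65 without that library, both still called, and INHBA 0.25, not called. The share of all genes called without it is not given here.

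PRS regenerated tissue against ileum grafts gave fewer calls in the same lists, though the difference between the scaffolds was not itself tested for the lists. Fewer of all genes were called higher as well, 7.21% against 10.9% for SIS regenerated tissue. In PRS regenerated tissue 6 of 13 collagens and fibroblast genes rose, with PI16 at 5.00 (SE 1.05), FBLN1 at 1.99 (SE 0.45) and DCN at 2.30 (SE 0.56). Of 17 wound response genes ITGA11 at 1.67 (SE 0.47) and FBN1 at 2.30 (SE 0.71) rose, and of 10 immediate early genes 4 rose. Without PRS regenerated tissue of animal 2 there were 2 collagens and fibroblast genes, 0 wound response genes and 5 immediate early genes called higher, with DCN at 1.66, ITGA11 at 1.12 and FBN1 at 1.09 no longer called. The share of all genes called in that fit is not given here. These comparisons and that of ileum with native bladder share the ileum libraries.

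Between the regenerated tissues, PRS against SIS, none of the 9 genes and 0% of all genes passed by edgeR, and DESeq2 called none of the 9. TNC alone had an unadjusted p under 0.05, with a log2 fold change of -2.14 (SE 0.80, unadjusted p = 0.0125), and 4.44% of all genes had one. It was 0.01 without SIS regenerated tissue of animal 2. Fold changes of the other 8 ran from -1.51 for THBS1 to 1.06 for FN1, with 95% intervals that included 0. Without SIS regenerated tissue of animal 2 THBS1 gave -0.22, and SPARC, FAP, THBS2, VCAN and THY1 took the other sign, at 0.29, 0.65, 0.24, 0.52 and 0.24. Without PRS regenerated tissue of animal 2 FN1 gave -1.11.

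The native bladders of the 3 arms were compared to see how far native bladder itself varied. No gene of the 9 passed between any of them by edgeR or DESeq2, and by edgeR 0% of all genes did. Without native bladder of Entero animal 4, SIS native against Entero native bladder gave 2.16 for SPARC, 2.09 for FN1, 2.03 for VCAN and 1.58 for THY1. None of these passed (adjusted p from 0.552 to 0.626 by edgeR). POSTN, FAP and VCAN had an unadjusted p under 0.05 in PRS native against SIS native bladder, as 7.02% of all genes had. POSTN was at 115, 36.1, 60.3 and 29.5 CPM in PRS native and 181, 155, 145, 123 and 235 CPM in SIS native bladder, which do not overlap. SPARC, at 527 to 1403 CPM in PRS native and 1645 to 4084 CPM in SIS native bladder, did not overlap either. Groups without overlap, lower in PRS native, were found for 1.43% of all genes. The log2 fold changes were -1.48 for POSTN (SE 0.61, adjusted p = 0.605) and -1.38 for SPARC (SE 0.76, adjusted p = 0.779).

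In the 14 native bladders FN1, THY1, FAP, SPARC and THBS2 ran with DES, and the other genes less closely. DES is read here as a marker of how much muscle a piece held, which was not measured otherwise. What share of all genes runs with DES in the 14 native bladders was not tested. The values of r with DES therefore do not set these genes apart from other genes. DES ranged from 1143 to 33436 CPM. Over these libraries log2(CPM + 1) of FN1 and of DES had a Pearson r of 0.94 (permutation p = 2e-05, the smallest the permutations can give, adjusted p = 0.00018 over the 9 genes) and a Spearman rho of 0.89 (adjusted p = 0.0009). Without the 2 libraries farthest from the median of DES it was 0.91, and within the 8 libraries under 10000 CPM of DES, a limit set after the values were seen, it was 0.90. FN1 was 279 CPM in the library with the least DES and 5537 CPM in that with the most.

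The next highest r were those of THY1 at 0.83, FAP at 0.77, SPARC at 0.77 and THBS2 at 0.73, with adjusted permutation p-values between 0.00207 and 0.00464. Their Spearman rho were 0.84, 0.75, 0.73 and 0.71. Leaving out the 2 farthest libraries gave 0.76, 0.68, 0.68 and 0.81 for these 4 genes. TNC at 0.60, THBS1 at 0.56 and VCAN at 0.63 passed for r (adjusted p from 0.0243 to 0.0285) but not for rho (adjusted p from 0.056 to 0.0894), and POSTN at 0.48 for neither (adjusted p = 0.0813). Within the 8 libraries of low DES, r was -0.43 for TNC and 0.25 for VCAN. The relation of TNC therefore rested on the 6 libraries with more muscle.

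Each arm held too few native bladders for an r of its own. After the mean of each arm was taken off, r with DES over the 14 libraries was 0.95 for FN1, 0.90 for FAP, 0.84 for SPARC, 0.84 for THY1, 0.77 for THBS2, 0.65 for VCAN, 0.63 for TNC, 0.57 for THBS1 and 0.52 for POSTN. Urothelial markers were low where DES was high in some of these libraries, at 201 CPM summed in SIS animal 4, which had the most DES, and 367 CPM in Entero animal 4, which had the second most. Other libraries did not follow this. The urothelial marker UPK1A was at 2205 CPM in PRS animal 2, with DES at 28780 CPM, and at 168 CPM in PRS animal 4, with DES at 1143 CPM.

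**Figure D4:**
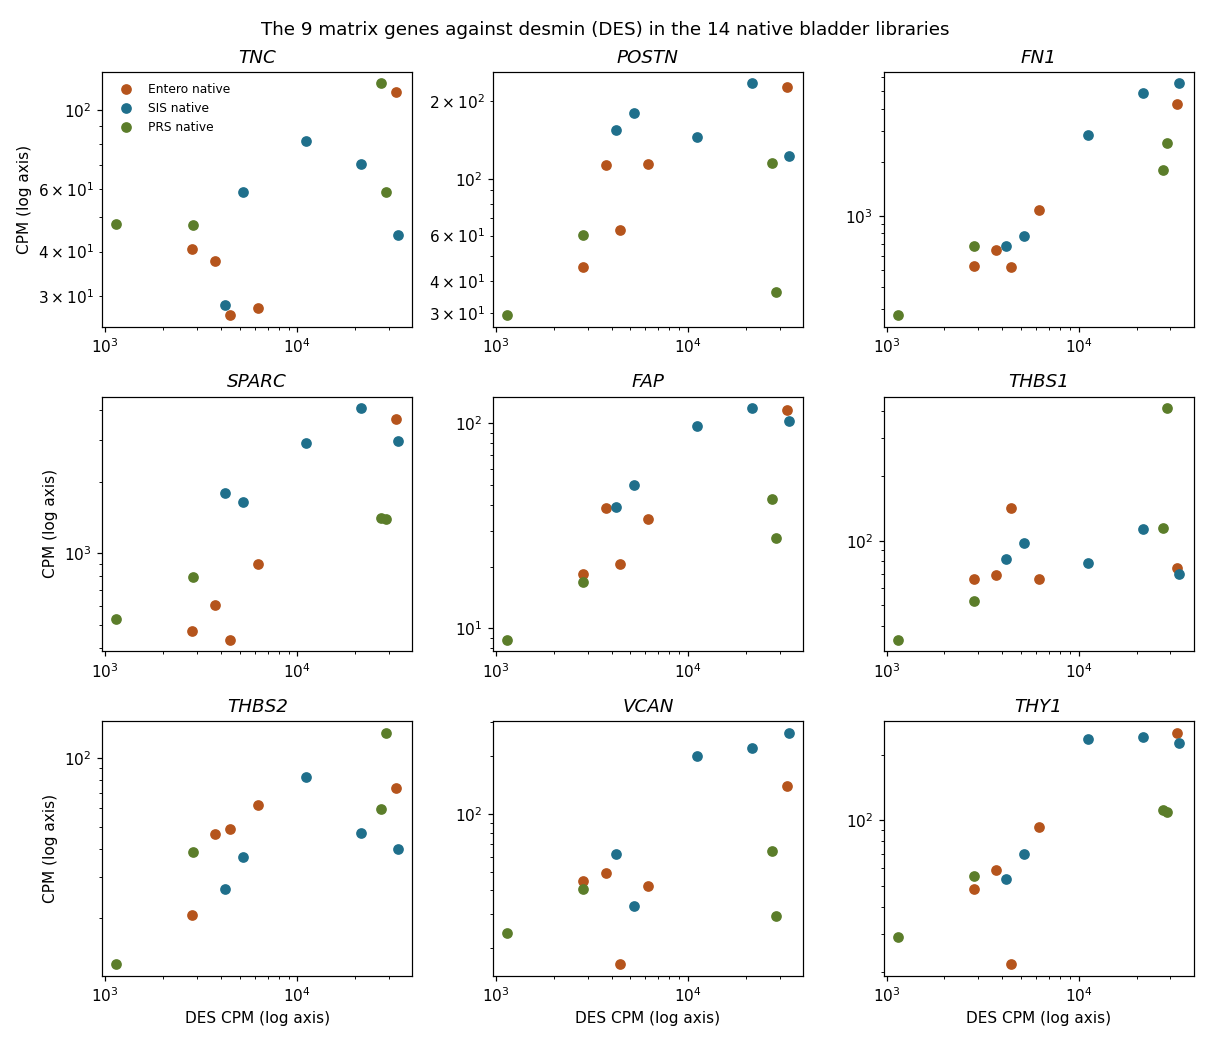
CPM of each of the 9 genes (vertical, log axis) against CPM of DES (horizontal, log axis) in the 14 native bladder libraries, coloured by arm. FN1 increases along the range of DES (r = 0.94), while TNC (r = 0.60) does not among the 8 libraries of low DES.

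How the 9 genes moved with each other was described by Pearson's r of the deviations of log2(CPM + 1) from the group means over the 28 libraries, which share tissue composition and carry no p. All libraries were used, and no r is given without those that stood apart. Over the 36 pairs the median r was 0.57, from 0.17 for POSTN with FN1 to 0.94 for SPARC with FAP. SPARC, FAP, THBS2, FN1 and THY1 had r of 0.67 to 0.94 with one another. THBS1 stood farthest from the rest together with POSTN and TNC, with mean r to the other 8 of 0.39, 0.39 and 0.44. THBS1 and THBS2, which share their domain plan, had an r of 0.61.

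**Figure D5:**
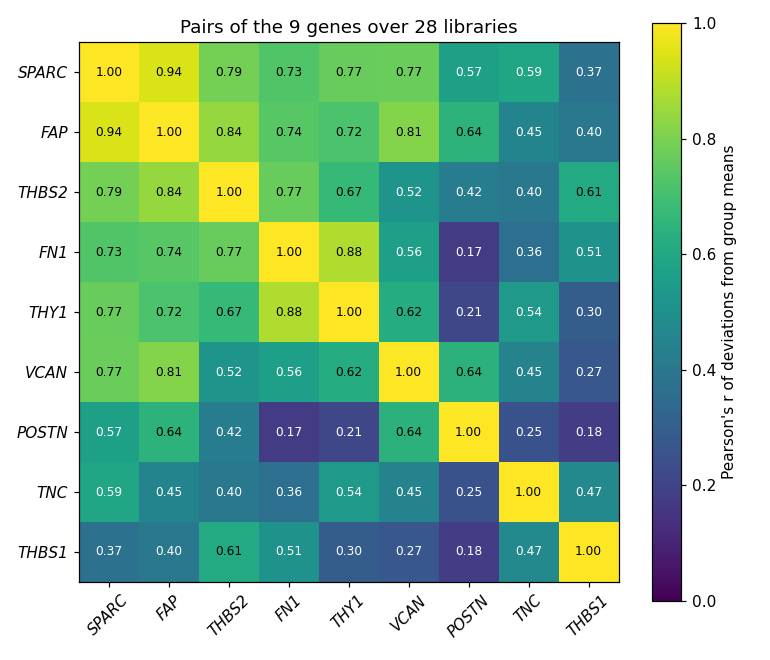
Pearson's r of deviations from group means of log2(CPM + 1), over 28 libraries, for each pair of the 9 genes. SPARC and FAP have the highest r at 0.94, and the rows of POSTN, TNC and THBS1 hold the lowest values.

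The genes most like each of the 9 were found by the same r among 11189 genes with a symbol and a mean of at least 5 CPM. FAP was nearest the fibrillar collagen COL1A2 (0.95), SPARC (0.94) and the fibrillar collagen COL3A1 (0.93). SPARC was nearest COL1A2, RCN3 and ANXA5 (0.94 each). THBS2 was nearest the matrix metalloproteinases MMP2 (0.96) and MMP14 (0.91) and the collagen COL5A1 (0.88), and FN1 nearest BACE1, FSTL1 and the basement membrane collagen COL4A1 (0.96 each). THY1 was nearest COL15A1 (0.91), CCDC80 and MRAS (0.90 each). VCAN was nearest ADAMTS9 (0.87), a protease of the family that cleaves versican, the small proteoglycan BGN (0.87) and LARP1B (0.87).

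TNC and THBS1 had other neighbours. TNC was nearest INHBA (0.83), DUSP14 (0.80) and LMCD1 (0.80). How far these r rest on SIS regenerated tissue of animal 2 was not tested. THBS1 was nearest the immediate early nuclear receptor NR4A3 (0.85), USP36 (0.85) and thrombomodulin, THBD (0.81). POSTN had the weakest neighbours, SPRED1 (0.72), the hypoxia factor HIF1A (0.71) and MOXD1 (0.70). Immediate early response genes, which tissue handling also induces, summed to 5999, 6363, 2949, 3011 and 3508 CPM in SIS regenerated tissue of animals 1 to 5 and 3898, 7048, 1784, 833 and 706 CPM in SIS native bladder. In PRS regenerated tissue of animals 1 to 4 they summed to 4408, 1309.8, 10043 and 1654 CPM, and in PRS native bladder to 994, 2946, 912 and 1096 CPM. In ileum grafts the sums were 610.0 to 1425 CPM, and in Entero native bladder 470.4 to 1995 CPM. THBS1 was higher in the graft than in native bladder in PRS animals 1 and 3 and lower in animals 2 and 4, and the immediate early sum was higher in animals 1, 3 and 4. Their part in the THBS1 values was not tested.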

How the data were processed

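Values are counts of reads per gene as deposited by the authors, not normalised, for 28 libraries. Per the submitters' processing notes, the tools were HISAT2 2.0.5, StringTie 1.3.3b and, for counting, featureCounts 1.5.0-p3. Per the labels' protocols, poly-A RNA was made into directional libraries with dUTP and sequenced in pairs. The sources used here name no genome build or annotation and no strand setting for the counting. Coordinates are therefore left out, and overlapping or antisense genes may share reads. Gene lengths are those of the authors' deposited table and entered no test. Levels were compared between genes only per kb.

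The 9 genes and all gene lists were chosen with earlier results of these data known. The main test was the quasi-likelihood test of edgeR 4.0.16 (R 4.3.3), in 1 model of the 6 groups over all 28 libraries, after filterByExpr at its minimum count of 10 and TMM scaling. Benjamini-Hochberg adjustment ran over 17177 genes, at a threshold of 0.05. The standard error (SE) was recovered from the F value and the log2 fold change, and 95% intervals rest on it. "Called" means an adjusted p under 0.05, and "rose" and "fell" are used of called genes. Fold changes are graft over native bladder, and in comparisons of grafts the first tissue named is on top. Sequenced depth leaves at least 110 reads for each of the 9 genes in each library, and counting error is small beside the ranges between libraries, which are 11.7-fold or wider.

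Pairing comes from the animal codes in the labels. Deviations from group means of the libraries of an animal had r from -0.299 to 0.707, above 0 in 10 of 14 animals. The animal as a block, DESeq2 1.42.0, other scaling and filters, fits of the groups alone, removal of mitochondrial genes and leaving out each library were the alternatives. Leaving out 3 libraries together was chosen after seeing the data, and so was the limit on DES among native bladders. Correlations with DES used 100000 permutations, two-sided. The genes named are the 9, the 3 with the smallest p of each list in the comparison described, the 3 nearest each of the 9, and the markers DES, ACTG2, UPK1A, VIL1, COL1A1, DCN and PECAM1, of which some are left out for room. One gene of the lists is not reported here. LRRC15, ITGB3, MYH11, SMTN, KRT5 and CLDN5 were not found in the table by symbol. The model was tested on simulated data.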

Additional observations from a re-analysis of the deposited data

Results flagged for a closer look

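The gap between the highest or lowest library of a group and its nearest neighbour was compared with the whole range of the group. Chance passes this test in about 1 of 20 sets of normally distributed values. It was run on CPM without a log, which can be skewed to the high side, so its rate by chance here is not known. Of 54 sets (9 genes in 6 groups), 19 passed it (35.2%), each through the highest library. That share is therefore a description and not an excess over chance. SIS regenerated tissue of animal 2 accounted for 7 of them, with 1543 CPM of TNC, 12649.8 CPM of SPARC, 248 CPM of FAP, 1456 CPM of THBS1, 184 CPM of THBS2, 673 CPM of VCAN and 199 CPM of THY1. Native bladder of Entero animal 4 accounted for 5, with 112 CPM of TNC, 4232 CPM of FN1, 3692 CPM of SPARC, 116 CPM of FAP and 139 CPM of VCAN. DES was 32646 CPM there, against 2837 to 6226 CPM in the other 4 native bladders of the arm.

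The ileum graft of animal 2 accounted for 3, with 232 CPM of POSTN, 2343 CPM of SPARC and 61.5 CPM of FAP, and it had the least DES of the 5 grafts, 1044 CPM. The other 4 were 1217 CPM of FN1 in the ileum graft of animal 3, 9182 CPM of FN1 in PRS regenerated tissue of animal 2, 141 CPM of THBS1 in native bladder of Entero animal 3 and 119 CPM of TNC in native bladder of PRS animal 1. The sets are not independent, since the 9 genes move together within a library.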

How the results depend on the processing

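Over the alternatives, 2278 of 2322 values for single genes kept their direction and their side of the threshold or were uncalled in both fits, 15 lost a call, 29 gained one, and none reversed while called. Uncalled values took the other sign 113 times. The number of the 9 genes called moved as follows, with the cause not tested. For ileum graft against native bladder it was 1 with all libraries, 2 without the 3 libraries that stood apart, and 1 to 2 over fits that left out 1 library. TNC was called in every alternative, at 2.87 to 4.08. For SIS regenerated tissue against native bladder it was 0, and 1 by DESeq2. For the SIS change against the Entero change it was 0, with 1 without the 3 libraries and 0 to 1 with 1 library left out.

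For the PRS change against the Entero change it was 0, with 1 by DESeq2, 1 in a fit of those groups alone, 2 without the 3 libraries and 0 to 1 with 1 library left out. SIS regenerated tissue against ileum graft gave 2, with 6 by DESeq2, 0 in a fit of those groups alone, 4 without the 3 libraries and 0 to 6 with 1 library left out. PRS regenerated tissue against ileum graft gave 1, with 2 by DESeq2, 3 without the 3 libraries and 0 to 2 with 1 library left out. With the animal as a replicate block TNC in ileum grafts gave 3.33 (adjusted p = 0.00644 by edgeR), and no call on the 9 genes changed. Comparisons between animals have no block fit, since they share none. Other scalings, filters and the removal of mitochondrial genes changed no call on the 9 genes. Over all genes, DESeq2 called 1165 for the PRS change against the Entero change, where edgeR called 600, 1744 for the SIS change, where edgeR called 1127, and 70, 26 and 65 for SIS, PRS and both scaffolds against native bladder, where edgeR called 0. It also called 15 between PRS and SIS regenerated tissue, 20 for the PRS change against the SIS change, and 64, 28 and 114 between native bladders (SIS against Entero, PRS against Entero, PRS against SIS), where edgeR again called 0. For SIS and PRS regenerated tissue against ileum graft DESeq2 called 4530 and 3316 genes, where edgeR called 3627 and 2398. Fits of the groups alone called 2326 and 1040 there. For the PRS change against the Entero change such a fit called 368, where the model of all libraries called 600. Without the 3 libraries edgeR called 3087 and 2404 genes for SIS and PRS regenerated tissue against ileum graft. It then called 1547 and 747 for the SIS and PRS changes against the Entero change. With the animal as a block, 1 gene was called for both scaffolds, where 0 were without it. Depth left at least 110 reads for each of the 9 genes in each library.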
